A study of Bos taurus with 9 samples.

Results

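Glycolysis splits glucose into pyruvate in the cytosol, and the cell then either reduces pyruvate to lactate or carries it into mitochondria, where pyruvate dehydrogenase and pyruvate carboxylase compete for it. Pyruvate dehydrogenase kinases switch the dehydrogenase off by phosphorylating it. In adipocytes glucose carbon supplies both the acetyl units and the glycerol backbone of stored fat, and insulin raises uptake through the transporter GLUT4. The 35 genes described here cover this route in cattle cells: glucose transporters, the 10 enzymatic steps of glycolysis, the PFKFB enzymes that set its pace, lactate dehydrogenases and monocarboxylate transporters, the 4 subunit genes of the pyruvate dehydrogenase complex, its 4 kinases and pyruvate carboxylase. They were taken by name out of 21512 genes in the expression table, with earlier results of these data known, and each was located by its NCBI gene identifier. All 35 were found, and all 35 passed the filter on low counts.

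The RNA came from 9 cultures, 3 in each of 3 groups. BEFs (named AnEFs in the data columns) were fibroblasts grown out of cattle ear margin tissue in serum-containing medium, sampled at day 0. CiADCs-3d and CiADCs-6d were the same kind of cells after 3 and 6 days in N2B27 medium with the histone deacetylase inhibitor VPA at 500 µg/mL, the retinoic acid receptor agonist TTNPB at 1 µM and the TGF-beta receptor inhibitor RepSox at 10 µM. No time-matched culture without the compounds was analysed here, so compounds, medium and time in culture cannot be told apart, and the number of animals behind the cultures is not given in the sources used here. The sources do not say whether the replicates were separate inductions. The p-values measure only the spread between these samples, which may be technical.

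Each library held between 18509244 and 24071580 counts. CiADCs-3d replicate 1 and CiADCs-6d replicate 1 stood apart from their groups. Over 13674 genes the log2 levels of CiADCs-3d replicate 1 correlated with the other day 3 libraries at r = 0.983 and 0.9874, against 0.9935 between those, and CiADCs-6d replicate 1 with the other day 6 libraries at 0.9813 and 0.986, against 0.9936 between those. Where leaving them out, singly or together, changed the call of any of the 35 genes against BEFs, a value or adjusted p without them is given. For day 6 against day 3 the genes whose calls changed are named, with values for some of them. Among marker genes, the summed level of 6 proliferation genes (MKI67, TOP2A and others) ran from 1012 to 1168 CPM (a count scaled to a common library total) in BEFs, from 43.2 to 95.7 in CiADCs-3d and from 18.0 to 21.9 in CiADCs-6d. The 8 fibroblast markers together had 61580 to 64330, 22880 to 33840 and 15720 to 20860 CPM on days 0, 3 and 6, but not all of them fell. At an edgeR adjusted p under 0.05, 4 were lower and 1 higher on day 3, and 6 lower and 0 higher on day 6. COL1A1 averaged 22140, 6183 and 2773 CPM on days 0, 3 and 6, and COL3A1 averaged 10750, 12390 and 9112 CPM. PDGFRA averaged 730.0, 1358 and 823.2 CPM, and THY1 averaged 1031, 1023 and 498.4 CPM. The 10 adipocyte markers together had 27.4 to 34.4, 43.1 to 55.4 and 28.2 to 31.9 CPM, a low summed level on every day. Within this list LPL, which frees fatty acids from lipoproteins, was 5.18-fold and 2.37-fold higher on days 3 and 6 than in BEFs, the adipocyte regulator PPARG 3.21-fold and 1.55-fold higher, and CEBPA, another such regulator, 4.6-fold higher on day 6 (edgeR adjusted p between 4.19e-07 and 0.0264), at group means of at most 16.5 CPM. The adipokine ADIPOQ lay between 0.606 and 1.96 CPM in BEFs, 4.36 and 5.11 in CiADCs-3d and 3.57 and 4.33 in CiADCs-6d, while the fatty acid carrier FABP4 lay between 10.3 and 11.6, 2.09 and 8.13, and 0.503 and 1.38 CPM. CIDEC lay between 0.606 and 2.0 CPM in BEFs and at or below 0.256 CPM later. PLIN1 passed on neither day, at log2 fold changes of -0.36 and -0.40. Of the 9 adipocyte markers tested, 33.3% were higher and 22.2% lower on day 3, against 30.9% and 29.1% of all genes tested. On day 6, 44.4% were higher and 22.2% lower, against 35.6% and 31.9%. Of the 5 leukocyte markers PTPRC was at 0 in all 9 libraries, and the summed level ran from 1.08 to 1.64, 45.1 to 46.9 and 63.3 to 79.2 CPM. CD14 made up most of it on the later days, at 42.2 and 61.7 CPM, and CD68 was 6.4-fold and 10.8-fold higher than in BEFs, at 3.84 and 6.53 CPM. Of the 5 endothelial markers CDH5 and KDR stayed at or below 1.31 CPM. The sum of the 5 was 11 to 15.9, 309.6 to 457.8 and 193.6 to 318.0 CPM, of which VWF averaged 7.75, 367.3 and 244.7 CPM. The 5 chondrocyte markers summed to 332.5 to 338.8, 59.1 to 71.4 and 39.9 to 58.5 CPM. ACAN averaged 316.4, 37.9 and 28.0 CPM of these, while COL2A1 was 3.54-fold and 2.84-fold higher on days 3 and 6 than in BEFs (adjusted p = 2.64e-05 and 9.96e-05). The keratinocyte sum overlapped between BEFs and both later days, at 27.7 to 51.4, 26.4 to 35.1 and 44.4 to 54.0 CPM, but its genes did not move alike. On days 0, 3 and 6 KRT5 averaged 31.6, 15.3 and 32.5 CPM, and TP63 averaged 1.65, 13.45 and 11.45 CPM. The muscle markers MYH1, MYH2 and MYOD1 and the melanocyte markers MLANA and DCT were at 0 in all libraries. Other genes of these lists were not silent. DES, of the muscle list, averaged 5.4, 1.775 and 0.9 CPM on days 0, 3 and 6. PMEL, of the melanocyte list, averaged 4.615, 3.304 and 2.361 CPM. The part that these other transcripts play in the results below was not tested, and in bulk RNA fewer cells of a type cannot be told apart from less RNA per cell.

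The genes GPI, PFKP, ALDOA, TPI1, GAPDH, PGK1, PGAM1, ENO1 and PKM were lower on both days of induction, while the transporter gene SLC2A3, the hexokinase HK2, the regulators PFKFB3 and PFKFB4, the kinases PDK3 and PDK4 and the carboxylase PC were higher. In CiADCs-3d against BEFs, 11 of the 35 genes were higher and 14 lower at an adjusted p under 0.05, which is 31.4% and 40.0% of them, against 30.9% and 29.1% of the 14020 genes tested. In CiADCs-6d against BEFs, 10 were higher (28.6%) and 16 lower (45.7%), against 35.6% and 31.9% of all genes tested. In either direction 60.0% of all genes were called on day 3 and 67.5% on day 6. Every day 3 library lay above every BEFs library for 13 of the 35 genes and below for 15, where 70.5% of all genes had no overlap in either direction. Every day 6 library lay above for 10 and below for 18, where 72.7% of all genes had no overlap. The median log2 fold change over the 35 was -0.06 on day 3 and -0.29 on day 6, with 0.01 and 0.03 over all genes tested. The share of higher genes was thus near or below that of the whole table, and the share of lower genes above it. Asking also for a log2 fold change of at least 1 in size left 4 higher and 8 lower on day 3, against 18.2% and 9.94% of all genes, and 8 higher and 9 lower on day 6, against 21.9% and 13.4%.

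Of the 35, 10 were higher on both days (SLC2A3, HK2, PFKFB3, PFKFB4, ENO2, LDHA, PDHA1, PDK3, PDK4 and PC) and 12 were lower on both (GPI, PFKP, ALDOA, TPI1, GAPDH, PGK1, PGAM1, ENO1, ENO3, PKM, SLC16A3 and PDK1). ALDOC was called higher on day 3 alone, SLC2A1 and SLC2A4 lower on day 3 alone, and PFKL, LDHB, PDHB and DLAT lower on day 6 alone. With all 9 libraries in the fit HK1, PFKM, PFKFB2, SLC16A1, DLD and PDK2 passed the test on neither day. Both comparisons use the same BEFs libraries, so the calls on day 3 and day 6 are not independent. The share of all genes called the same way on both days was not counted.

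**Figure D1:**
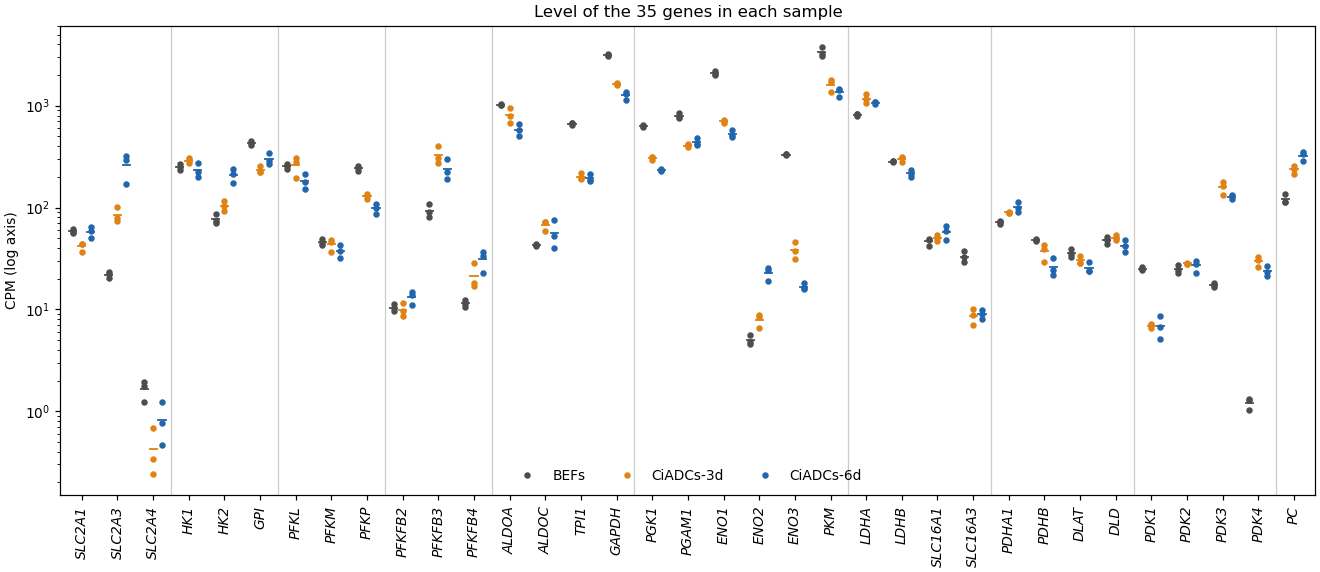
Level of each of the 35 genes in CPM on a log axis, with a point for each library, a bar at the group mean, and days 0, 3 and 6 from left to right within a gene; grey lines part the role groups. PDK4 lies near 1 CPM in the 3 BEFs libraries and above 20 CPM in all 6 later ones, while ENO3 falls below 50 CPM in all 6 later libraries and the GAPDH points of the 3 days do not overlap.

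**Figure D2:**
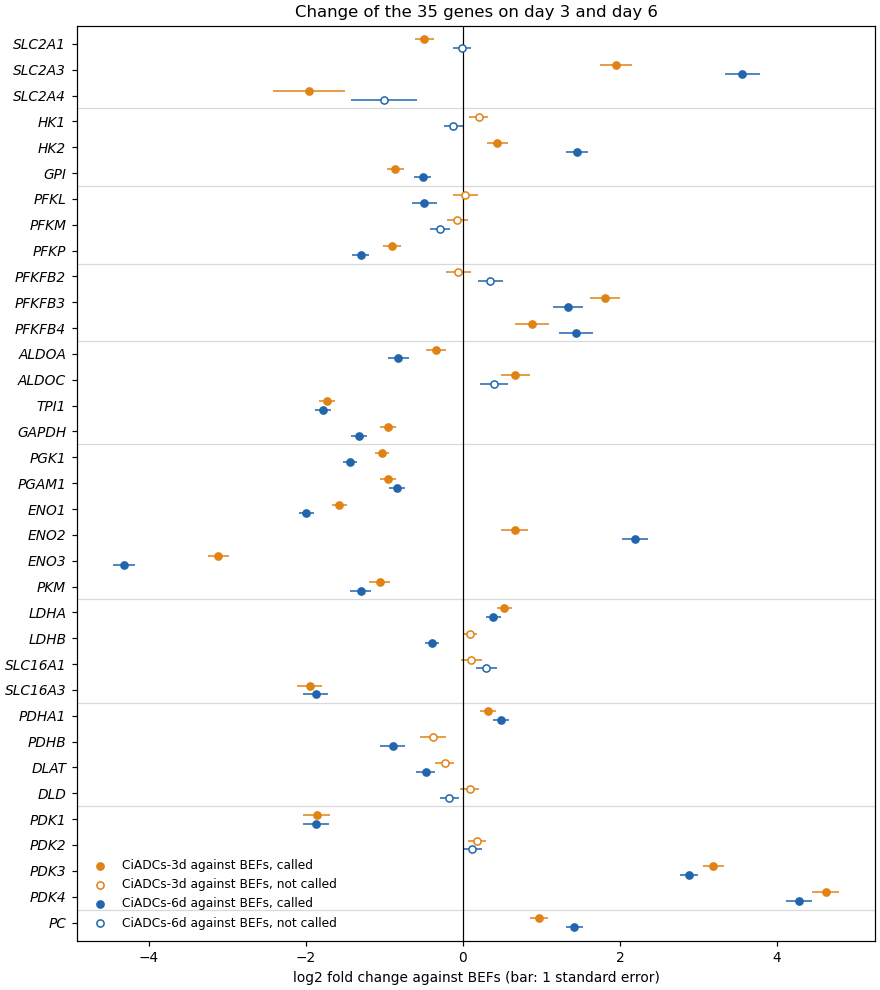
Log2 fold change of the 35 genes in CiADCs-3d (orange) and CiADCs-6d (blue) against BEFs, with a bar of 1 standard error; filled points passed an adjusted p under 0.05 and open points did not. PDK4 at 4.62 and 4.28 and ENO3 at -3.11 and -4.31 mark the ends of the range.

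Among the glucose transporters, SLC2A3 rose and passed SLC2A1 in level. SLC2A3 encodes GLUT3, a high-affinity transporter best known from neurons. It had 22.4, 20.4 and 23.0 CPM in BEFs, 102.1, 73.0 and 79.1 CPM in CiADCs-3d and 170.7, 317.0 and 289.5 CPM in CiADCs-6d. The 3 days did not overlap, and the day 6 library with the lowest value was replicate 1. The log2 fold change was 1.95 ± 0.21 (SE) on day 3 (adjusted p = 6.06e-06) and 3.56 ± 0.22 on day 6 (adjusted p = 3.69e-08). Between day 6 and day 3 it was 1.61 ± 0.2 (adjusted p = 0.000321).

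SLC2A1, which encodes the basal transporter GLUT1, was lower on day 3. It had 57.1, 56.0 and 61.7 CPM in BEFs, 44.3, 43.4 and 36.7 CPM in CiADCs-3d and 50.2, 59.0 and 64.6 CPM in CiADCs-6d. All 3 day 3 libraries lay below all others. The log2 fold change was -0.49 ± 0.12 on day 3 (adjusted p = 0.00301) and -0.01 ± 0.12 on day 6 (adjusted p = 0.957). The day 6 level was higher than that of day 3 by 0.48 ± 0.12 (adjusted p = 0.0103), a call that was lost without CiADCs-3d replicate 3 (adjusted p = 0.0586) or CiADCs-6d replicate 3 (0.0675).

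SLC2A4 encodes GLUT4, the insulin-responsive transporter of fat and muscle. By FPKM it was the lowest or next to lowest of the 35 genes on every day. It had 1.77, 1.92 and 1.24 CPM in BEFs, 0.691, 0.243 and 0.341 CPM in CiADCs-3d and 0.461, 1.23 and 0.758 CPM in CiADCs-6d. The BEFs libraries lay above every later library, but on day 6 only by a narrow margin. BEFs replicate 3 had 1.244 CPM (28 counts) and CiADCs-6d replicate 2 had 1.235 CPM (27 counts). Over 3 libraries these levels rest on 112 counts in BEFs, then 26 in CiADCs-3d and 51 in CiADCs-6d. It fell on day 3 by 1.96 on the log2 scale (SE 0.46, adjusted p = 0.00299). On day 6 the log2 fold change was -1.0 ± 0.42 (adjusted p = 0.0537), and this passed the threshold without CiADCs-6d replicate 2 (adjusted p = 0.021), CiADCs-3d replicate 1 (0.0338) or CiADCs-3d replicate 2 (0.0468).

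Levels can be compared between genes only per length, for which the deposited FPKM (fragments scaled to transcript length and library total) were used. Of the summed FPKM of these 3 transporters, SLC2A3 held 18.8% in BEFs, then 56.3% in CiADCs-3d and 73.1% in CiADCs-6d, and SLC2A1 held 79.1%, 43.2% and 26.6%. The sum itself was 28.7 ± 1.15 FPKM in BEFs, then 38.1 ± 5.51 in CiADCs-3d and 90.1 ± 23.4 in CiADCs-6d (SD, n = 3). The shares of SLC2A1 and SLC2A3 did not overlap between any pair of days, for which the exact two-sided permutation test gives p = 0.1, the smallest that 3 against 3 samples allow.

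At the first phosphorylation the inducible hexokinase HK2 was higher on both days, while the call of the constitutive HK1 turned on single libraries. HK2, the hexokinase that insulin and hypoxia are known to raise, had 73.0, 71.0 and 86.0 CPM in BEFs, 116.3, 103.2 and 92.7 CPM in CiADCs-3d and 175.0, 214.9 and 239.3 CPM in CiADCs-6d. The days did not overlap. It was 1.36-fold higher on day 3 (log2 0.44 ± 0.13, adjusted p = 0.0131) and 2.74-fold higher on day 6 (log2 1.45 ± 0.14, adjusted p = 1.46e-06), and day 6 exceeded day 3 by 1.01 ± 0.13 (adjusted p = 0.000439). The day 3 call was lost without BEFs replicate 1 (adjusted p = 0.0558) or replicate 2 (0.0619). HK1 averaged 251.4 ± 17.8, 289.0 ± 17.5 and 231.7 ± 36.7 CPM on days 0, 3 and 6 (SD, n = 3), with log2 fold changes of 0.20 and -0.12 against BEFs that did not pass the test. Without CiADCs-6d replicate 1, HK1 was lower on day 6 at -0.27 (adjusted p = 0.0338). Without both that library and CiADCs-3d replicate 1 it was higher on day 3 at 0.22 (adjusted p = 0.0458) and lower on day 6 at -0.27 (adjusted p = 0.0165). Of the summed FPKM of both, HK2 held 17.2%, 19.7% and 38.4% on days 0, 3 and 6, and CiADCs-6d replicate 1 was the lowest of its day at 30.5%.

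GPI, which turns glucose 6-phosphate into fructose 6-phosphate, was lowest on day 3. It had 430.1, 408.9 and 444.9 CPM in BEFs, 224.1, 255.5 and 225.5 CPM in CiADCs-3d and 345.8, 265.8 and 287.9 CPM in CiADCs-6d. All later libraries lay below all BEFs, and all day 6 libraries above those of day 3. On the log2 scale the change was -0.86 ± 0.11 on day 3 (adjusted p = 3.4e-05) and -0.51 ± 0.11 on day 6 (adjusted p = 0.00146). The difference between day 6 and day 3, 0.35 ± 0.11 (adjusted p = 0.0359), became 0.19 without CiADCs-6d replicate 1 (adjusted p = 0.153), and the call was also lost when any single BEFs library, replicate 1 or 3 of CiADCs-3d, or replicate 3 of CiADCs-6d was left out, with adjusted p between 0.0602 and 0.138.

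The committed step is catalysed by phosphofructokinase, whose 3 genes are named for platelet (PFKP), liver (PFKL) and muscle (PFKM). PFKP had 242.1, 229.5 and 254.3 CPM in BEFs, 122.5, 137.2 and 128.4 CPM in CiADCs-3d and 108.8, 85.6 and 99.98 CPM in CiADCs-6d. The 3 days did not overlap, with log2 fold changes of -0.90 ± 0.11 (adjusted p = 1.44e-05) on day 3 and -1.3 ± 0.11 (adjusted p = 4.9e-07) on day 6. The further step down between day 6 and day 3 was -0.40 ± 0.11 (adjusted p = 0.0166), and it was not called without CiADCs-3d replicate 2 (0.0601) or replicate 3 (0.0516).

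PFKL had 257.3, 239.7 and 265.3 CPM in BEFs, 193.3, 304.8 and 278.3 CPM in CiADCs-3d and 211.7, 150.4 and 178.8 CPM in CiADCs-6d. On day 3 replicate 1 lay below all BEFs and the others above. Against BEFs the log2 fold change was 0.03 ± 0.16 on day 3 (adjusted p = 0.9) and -0.49 ± 0.16 on day 6 (adjusted p = 0.0177). The day 6 call was lost without BEFs replicate 3 (adjusted p = 0.0516), or without replicate 2 (0.0763) or 3 (0.0512) of CiADCs-6d. Without CiADCs-3d replicate 1 and CiADCs-6d replicate 1, PFKL was higher on day 3 by 0.22 (adjusted p = 0.0485). PFKM averaged 45.6 ± 3.0, 43.5 ± 5.85 and 37.4 ± 5.18 CPM on days 0, 3 and 6 (SD, n = 3), and its day 6 value of -0.29 did not pass the test (adjusted p = 0.0712). Without CiADCs-6d replicate 1 PFKM was lower on day 6 at -0.41 (adjusted p = 0.0167), without CiADCs-3d replicate 1 at -0.30 (adjusted p = 0.0351), and without both at -0.41 (adjusted p = 0.00197). The PFKP share of the 3 genes' FPKM was 46.5% in BEFs, then 32.0% in CiADCs-3d and 32.8% in CiADCs-6d, and the PFKL share was 45.4%, 58.2% and 55.7%. The summed FPKM of the 3 was 197.4 ± 8.75, 157.5 ± 23.5 and 116.8 ± 17.0 on days 0, 3 and 6 (SD, n = 3).

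The PFKFB enzymes make and remove fructose 2,6-bisphosphate, the main activator of phosphofructokinase. Of the 3 measured, PFKFB3 and PFKFB4 were higher on both days. PFKFB3, whose product is known for strong kinase activity, had 89.6, 81.4 and 109.1 CPM in BEFs, 271.0, 401.1 and 307.5 CPM in CiADCs-3d and 297.6, 190.2 and 222.5 CPM in CiADCs-6d. All later libraries exceeded all BEFs, and days 3 and 6 overlapped. It was 3.5-fold higher on day 3 (log2 1.81 ± 0.19, adjusted p = 4.87e-06) and 2.54-fold higher on day 6 (log2 1.34 ± 0.19, adjusted p = 4.31e-05).

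PFKFB4 had 10.6, 11.3 and 12.4 CPM in BEFs, 28.5, 18.0 and 16.8 CPM in CiADCs-3d and 22.7, 33.4 and 37.0 CPM in CiADCs-6d. The highest day 3 library and the lowest day 6 library were both replicate 1. Its log2 fold change was 0.88 ± 0.22 on day 3 (adjusted p = 0.00423) and 1.44 ± 0.22 on day 6 (adjusted p = 9.54e-05). Without both of these libraries the difference between day 6 and day 3 moved to 0.97 (adjusted p = 1.77e-05) for PFKFB4 and to -0.83 (adjusted p = 0.000273) for PFKFB3, where the values with all libraries were 0.56 (adjusted p = 0.0695) and -0.46 (adjusted p = 0.0771). PFKFB2 averaged 10.4, 9.92 and 13.2 CPM on days 0, 3 and 6 and passed the test on neither day, but without CiADCs-6d replicate 1 it was higher on day 6 at 0.44 (adjusted p = 0.0243). The summed FPKM of the 3 was 30.8 ± 4.01 in BEFs, then 93.4 ± 15.3 in CiADCs-3d and 76.3 ± 12.1 in CiADCs-6d (SD, n = 3), of which PFKFB3 held 75.9% to 91.6% in the later libraries.

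Apart from phosphofructokinase, the main-form genes of the trunk from GPI to pyruvate were lower on both days. Of these 8 genes (GPI, ALDOA, TPI1, GAPDH, PGK1, PGAM1, ENO1 and PKM), all 8 were called lower, by log2 fold changes between -1.73 and -0.34 on day 3 and between -1.99 and -0.51 on day 6. The 8 are not one of the role groups, and the genes were chosen with earlier results known. The set leaves out ALDOC and ENO2, which were called lower on neither day, and ENO3, which was lower on both. Of all genes tested 29.1% were lower on day 3 and 31.9% on day 6. The day 3 call of ALDOA, at -0.34, was lost in most alternative analyses, as given below. Together the 8 genes took 1.2% of all counts in BEFs, then 0.591% in CiADCs-3d and 0.495% in CiADCs-6d. The 35 genes together took 1.49 ± 0.0592% in BEFs, then 0.952 ± 0.0393% in CiADCs-3d and 0.85 ± 0.0356% in CiADCs-6d (SD, n = 3). GAPDH held the first place of the 35 by FPKM on every day, and PKM, ENO1 and ALDOA stayed among the first 5.

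TPI1 interconverts the triose phosphates. It had 675.0, 645.9 and 678.7 CPM in BEFs, 220.1, 194.5 and 188.5 CPM in CiADCs-3d and 181.8, 185.8 and 213.9 CPM in CiADCs-6d. The later libraries lay far below BEFs and overlapped each other. It was 3.32-fold lower on day 3 (adjusted p = 3.69e-08) and 3.44-fold lower on day 6 (adjusted p = 2.27e-08), with a log2 fold change between day 6 and day 3 of -0.05 ± 0.1.

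GAPDH, which makes 1,3-bisphosphoglycerate and NADH and often serves as a reference gene, had 3153, 3054 and 3241 CPM in BEFs, 1664, 1631 and 1598 CPM in CiADCs-3d and 1292, 1129 and 1376 CPM in CiADCs-6d. The 3 days did not overlap. On the log2 scale the change was -0.95 ± 0.1 on day 3 (adjusted p = 5.43e-06), -1.32 ± 0.1 on day 6 (adjusted p = 2.59e-07) and -0.37 ± 0.1 between day 6 and day 3 (adjusted p = 0.0183). A second row of the table carries the GAPDH symbol but belongs to the gene LOC616200, which held 1.24% to 1.55% of the counts of both.

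The aldolases parted. ALDOA, the main aldolase, averaged 1024 ± 13.2, 808.7 ± 137.4 and 578.6 ± 77.4 CPM on days 0, 3 and 6 (SD, n = 3). Its day 6 value of -0.82 ± 0.13 passed (adjusted p = 0.000159). Its day 3 value of -0.34 ± 0.13 (adjusted p = 0.0428) was lost in 12 of 20 alternative analyses, and without CiADCs-3d replicate 1 it was -0.21 (adjusted p = 0.196). ALDOC, the form known from brain, was higher on day 3 by 0.67 ± 0.18 (adjusted p = 0.00748) at 67.9 CPM, against 42.6 CPM in BEFs, and without CiADCs-6d replicate 2 it passed on day 6 as well, at 0.59 (adjusted p = 0.00649). Its share of the aldolase FPKM was 3.87% in BEFs, then 7.60% in CiADCs-3d and 8.53% in CiADCs-6d. In RefSeq 42.0% of the ALDOA span is shared with the protein-coding gene LOC132343858, which is absent from the expression table. How reads of that gene were counted was not tested.

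In the later steps of the pathway, where energy is recovered, 5 of 6 genes (83.3%) were lower on both days and ENO2 was higher. Of all genes tested 29.1% were lower on day 3 and 31.9% on day 6. PGK1, which makes the first ATP, averaged 630.8 ± 7.89, 308.0 ± 11.3 and 233.2 ± 7.34 CPM on days 0, 3 and 6 (SD, n = 3), for log2 fold changes of -1.03 ± 0.09 and -1.44 ± 0.09 against BEFs. The mutase PGAM1 averaged 785.7 ± 46.8, 405.7 ± 13.4 and 439.8 ± 40.6 CPM, and PKM, the pyruvate kinase of most tissues, 3356 ± 356.0, 1614 ± 209.8 and 1360 ± 137.1 CPM. In RefSeq 57.5% of the PGK1 span is shared with TAF9B, which had 113 counts per library on average. The strand used for counting is not given in the sources used here. How reads of the shared span were assigned was not tested.

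The 3 enolases did not move alike: ENO1 and ENO3 were lower and ENO2 higher. ENO1, the form of most cells, averaged 2091 ± 109.8, 703.1 ± 28.4 and 527.7 ± 41.4 CPM on days 0, 3 and 6 (SD, n = 3), and was 2.97-fold lower on day 3 (adjusted p = 5.72e-08) and 3.96-fold lower on day 6 (adjusted p = 6.87e-09).

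ENO3, the enolase of muscle, had 333.3, 326.4 and 333.0 CPM in BEFs, 31.4, 37.6 and 45.7 CPM in CiADCs-3d and 16.3, 15.7 and 18.2 CPM in CiADCs-6d. No library of one day overlapped another day. It was 8.65-fold lower on day 3 (log2 -3.11 ± 0.13, adjusted p = 2.21e-09) and 19.8-fold lower on day 6 (log2 -4.31 ± 0.14, adjusted p = 2.45e-10), and its day 6 level was lower than that of day 3 by 2.29-fold (adjusted p = 0.000165). By FPKM it ranked 9th of the 35 in BEFs and 27th in CiADCs-6d.

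ENO2, the enolase of neurons, had 4.8, 4.59 and 5.64 CPM in BEFs, 8.77, 8.45 and 6.51 CPM in CiADCs-3d and 19.1, 24.2 and 25.3 CPM in CiADCs-6d. The days did not overlap. It was 1.58-fold higher on day 3 (adjusted p = 0.00603) and 4.56-fold higher on day 6 (adjusted p = 3.02e-07). It remained a small part of the family: ENO2 held 0.163%, 0.844% and 3.27% of enolase FPKM on days 0, 3 and 6, ENO1 83.4%, 92.9% and 93.2%, and ENO3 16.4%, 6.25% and 3.57%. The family sum was 1381 ± 53.7 FPKM in BEFs, then 422.8 ± 15.7 in CiADCs-3d and 320.1 ± 18.5 in CiADCs-6d (SD, n = 3).

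**Figure D3:**
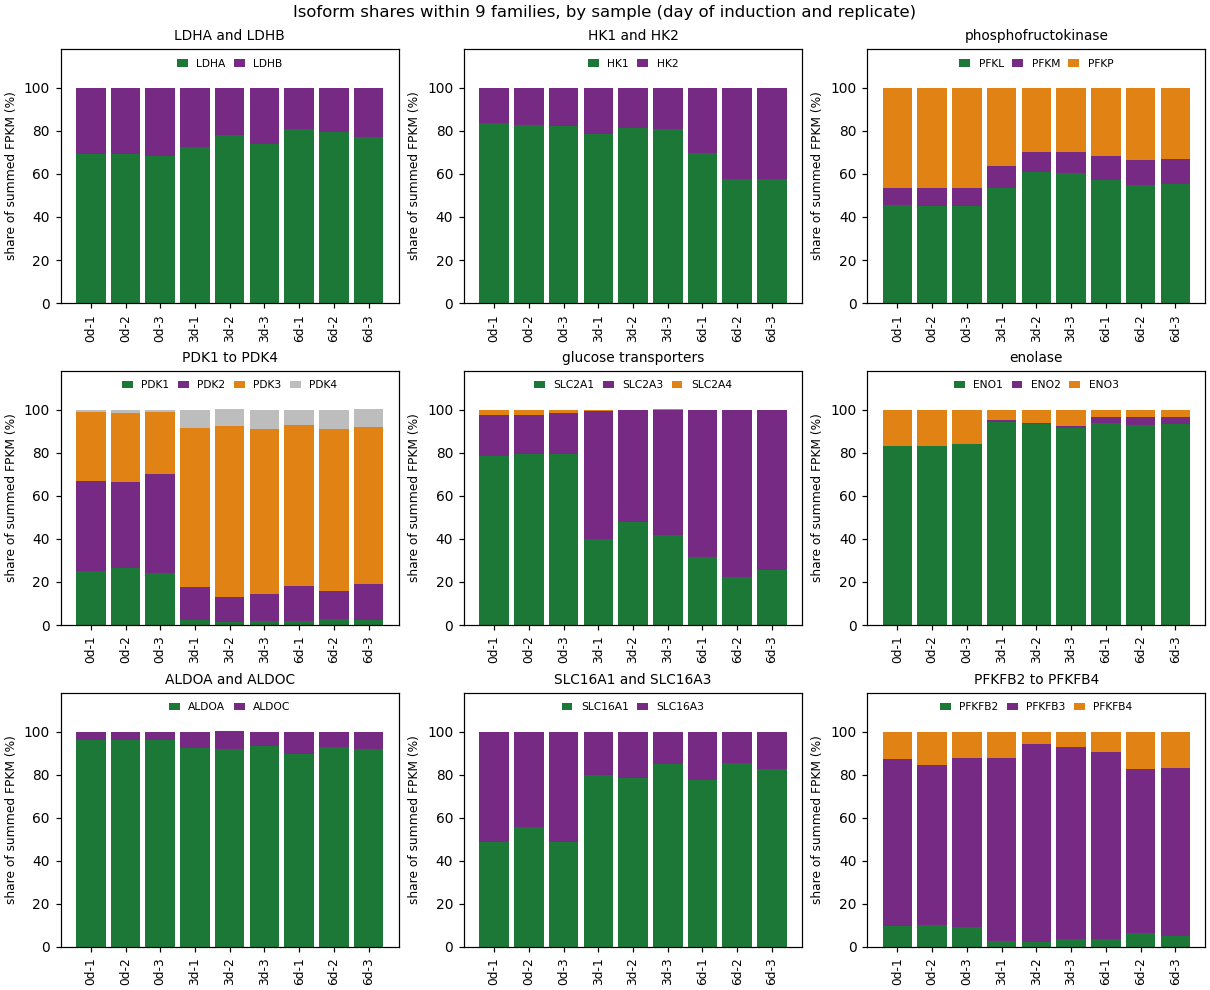
Share of each isoform in the summed FPKM of its family, in percent, for 9 families, with a stacked bar for each of the 9 libraries ordered by day (0d, 3d, 6d) and replicate. SLC2A3 holds between 67.9% and 77.3% of the 3 glucose transporters in CiADCs-6d, against 18.2% to 19.3% in BEFs, and PDK3 between 72.9% and 79.2% of the 4 kinases in the later libraries, against 29.0% to 32.3% in BEFs.

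At the lactate branch, LDHA, whose subunit favours the making of lactate, ran against the trunk. LDHA had 824.6, 823.7 and 792.2 CPM in BEFs, 1052, 1306 and 1154 CPM in CiADCs-3d and 1081, 1079 and 1028 CPM in CiADCs-6d. All later libraries lay above all BEFs. It was 1.44-fold higher on day 3 (log2 0.53 ± 0.1, adjusted p = 0.000682) and 1.31-fold higher on day 6 (log2 0.39 ± 0.1, adjusted p = 0.00449). By FPKM it moved to the second place of the 35, behind GAPDH, on both later days, where it had been seventh in BEFs. In RefSeq 23.4% of the LDHA span is shared with a non-coding gene, LOC132344183, that is absent from the expression table. How its reads were counted was not tested.

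LDHB, the other subunit gene, had 284.6, 283.5 and 280.5 CPM in BEFs, 309.2, 280.8 and 315.7 CPM in CiADCs-3d and 200.1, 213.0 and 234.4 CPM in CiADCs-6d. Day 6 lay below both other days, and BEFs and day 3 overlapped. Against BEFs the log2 fold change was 0.09 ± 0.09 on day 3 (adjusted p = 0.41) and -0.39 ± 0.09 on day 6 (adjusted p = 0.00293), and -0.48 ± 0.09 between day 6 and day 3 (adjusted p = 0.00364). The LDHA share of the FPKM of both was 68.9% in BEFs, then 74.8% in CiADCs-3d and 79.1% in CiADCs-6d.

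SLC16A3 encodes MCT4, the monocarboxylate transporter of glycolytic tissues that exports lactate. It had 37.5, 29.0 and 32.6 CPM in BEFs, 8.72, 10.1 and 6.94 CPM in CiADCs-3d and 9.96, 8.10 and 8.99 CPM in CiADCs-6d. The later libraries lay below all BEFs and overlapped each other. It was 3.86-fold lower on day 3 (adjusted p = 6.37e-07) and 3.66-fold lower on day 6 (adjusted p = 6.71e-07). In RefSeq 6.31% of its span is shared with CSNK1D, a far more abundant gene at 2980 counts per library, so reads at that end could not be assigned without strand. CSNK1D itself was higher on both days, by log2 fold changes of 0.30 and 0.36. SLC16A1, which encodes the more widespread transporter MCT1, averaged 46.7 ± 3.86, 50.3 ± 3.4 and 57.5 ± 9.33 CPM on days 0, 3 and 6 (SD, n = 3). Its day 6 value of 0.30 ± 0.13 missed the threshold (adjusted p = 0.0503), and leaving out CiADCs-6d replicate 1 moved it to 0.39 (adjusted p = 0.00652).

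The subunit genes of the pyruvate dehydrogenase complex did not move together. PDHA1, which encodes the phosphorylated alpha subunit of the first enzyme, had 69.2, 71.7 and 74.4 CPM in BEFs, 89.1, 90.9 and 88.8 CPM in CiADCs-3d and 89.7, 113.6 and 99.6 CPM in CiADCs-6d. All later libraries exceeded all BEFs. Its log2 fold change was 0.32 ± 0.1 on day 3 (adjusted p = 0.0152) and 0.49 ± 0.1 on day 6 (adjusted p = 0.000864). The day 3 call was lost without BEFs replicate 1 (adjusted p = 0.0658) or replicate 2 (0.05).

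PDHB, which encodes the beta subunit of the same enzyme, had 49.1, 47.4 and 48.1 CPM in BEFs, 29.1, 42.9 and 39.4 CPM in CiADCs-3d and 32.3, 24.2 and 21.5 CPM in CiADCs-6d. All later libraries lay below all BEFs. On the log2 scale the change was -0.38 ± 0.16 on day 3 (adjusted p = 0.0628) and -0.89 ± 0.16 on day 6 (adjusted p = 0.000435). The day 3 value passed when CiADCs-6d replicate 1 was left out, at -0.36 (adjusted p = 0.0312), or CiADCs-3d replicate 2, at -0.49 (adjusted p = 0.0332). DLAT, the acetyl-transferring core, was lower on day 6 at -0.47 ± 0.12 (adjusted p = 0.00485) at 25.6 CPM, against 35.4 CPM in BEFs, and its day 3 value of -0.23 did not pass. DLD, the dehydrogenase shared with other complexes, averaged 47.4, 50.4 and 42.3 CPM on days 0, 3 and 6 and passed on neither later day, but without CiADCs-6d replicate 2 it was lower on day 6 at -0.28 (adjusted p = 0.0486).

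Of the 4 kinases of the complex, PDK3 and PDK4 were higher on both days and PDK1 lower, and PDK4 had the largest fold change of the 35 genes in CiADCs-3d. PDK4, the kinase known for induction by fasting, glucocorticoids and fatty acids, had 1.3, 1.29 and 1.02 CPM in BEFs, 26.1, 30.5 and 32.6 CPM in CiADCs-3d and 21.2, 26.5 and 23.2 CPM in CiADCs-6d. The later days stood far above BEFs and overlapped each other in one library. It was 24.6-fold higher on day 3 (log2 4.62 ± 0.17, adjusted p = 7.11e-10) and 19.5-fold higher on day 6 (log2 4.28 ± 0.17, adjusted p = 1.08e-09).

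PDK3 is a kinase of narrow tissue range in other mammals. It had 17.9, 17.3 and 16.7 CPM in BEFs, 131.5, 179.9 and 162.9 CPM in CiADCs-3d and 132.5, 129.5 and 120.0 CPM in CiADCs-6d. It was 9.14-fold higher on day 3 (log2 3.19 ± 0.13, adjusted p = 1.18e-09) and 7.36-fold higher on day 6 (log2 2.88 ± 0.12, adjusted p = 1.91e-09). The difference between day 6 and day 3 was -0.31 (adjusted p = 0.0591), and -0.51 without CiADCs-3d replicate 1 and CiADCs-6d replicate 1 (adjusted p = 0.00029).

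PDK1, a target of hypoxia-inducible factor in other mammals, moved the other way. It had 25.1, 25.9 and 24.2 CPM in BEFs, 7.23, 6.55 and 6.94 CPM in CiADCs-3d and 5.12, 8.69 and 6.71 CPM in CiADCs-6d. It was 3.63-fold lower on day 3 (adjusted p = 1.68e-06) and 3.66-fold lower on day 6 (adjusted p = 1.23e-06). PDK2, the most widely expressed of the 4, averaged 24.9 ± 2.11, 28.2 ± 0.436 and 27.0 ± 3.65 CPM on days 0, 3 and 6 (SD, n = 3) and passed on neither day.

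Summed over the 4 kinases, FPKM was 25.4 ± 0.171 in BEFs, then 94.7 ± 10.8 in CiADCs-3d and 78.9 ± 4.39 in CiADCs-6d (SD, n = 3), with no overlap between BEFs and the later days (exact two-sided permutation test, p = 0.1, the smallest possible). PDK3 held 31.0%, 76.5% and 74.4% of the sum on days 0, 3 and 6. PDK4 held 1.25%, 8.33% and 8.03%. PDK1 held 25.2%, 1.92% and 2.27%, and PDK2 42.5%, 13.2% and 15.3%. The leading kinase by this measure was therefore PDK2 in BEFs and PDK3 on both later days.

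PC, pyruvate carboxylase, makes oxaloacetate from pyruvate and serves both gluconeogenesis and the export of acetyl units for fat. It had 114.2, 114.0 and 134.4 CPM in BEFs, 213.3, 254.5 and 241.0 CPM in CiADCs-3d and 335.2, 288.4 and 347.1 CPM in CiADCs-6d. The days did not overlap. Against BEFs the log2 fold change was 0.97 ± 0.11 on day 3 (adjusted p = 1.42e-05) and 1.42 ± 0.11 on day 6 (adjusted p = 4.08e-07). The day 6 level exceeded that of day 3 by 0.45 ± 0.11 (adjusted p = 0.0119), a call lost without CiADCs-6d replicate 3 (adjusted p = 0.0812).

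Between day 6 and day 3 most of the 35 genes did not pass the test. In CiADCs-6d against CiADCs-3d, 6 were higher (17.1%) and 9 lower (25.7%), against 14.4% and 13.6% of all genes tested, with a median log2 fold change of -0.22 over the 35 and 0.01 over all. Of all genes tested 28.0% were called in either direction. SLC2A3, HK2 and ENO2 rose by at least 1 on the log2 scale and ENO3 fell by that much, against 4.09% and 3.22% of all genes. Day 6 lay wholly above day 3 for 6 of the 35 and wholly below for 7, where 37.1% of all genes had no overlap in either direction. This comparison leaned on single libraries. Without CiADCs-3d replicate 3 there were 5 lower genes and without CiADCs-3d replicate 1 there were 14, and without CiADCs-6d replicate 3 there were 3 higher genes. Without CiADCs-3d replicate 1 and CiADCs-6d replicate 1 there were 8 higher and 17 lower: SLC2A4, PFKFB2 and PFKFB4 joined the higher genes, which GPI left, and HK1, PFKM, PFKFB3, ALDOC, PKM, LDHA, PDK3 and PDK4 joined the lower ones, at log2 fold changes between -0.83 and -0.27. Scaling by upper quartiles gave 5 higher and 12 lower. Of the 15 calls, 7 held in each of 20 alternative analyses that kept the same threshold, while 22 of 25 held in CiADCs-3d against BEFs and 25 of 26 in CiADCs-6d against BEFs.

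GAPDH was set beside 14 other genes that are often used as references. Of the 15, 4 were higher (26.7%) and 9 lower (60.0%) on day 3, against 30.9% and 29.1% of all genes tested. On day 6, 5 were higher (33.3%) and 7 lower (46.7%), against 35.6% and 31.9%. The median log2 fold changes of the 15 were -0.56 and -0.34. ACTB, cytoplasmic actin, averaged 5525 CPM in BEFs, then 1782 in CiADCs-3d and 1284 in CiADCs-6d, with log2 fold changes of -1.63 ± 0.21 (adjusted p = 2.96e-05) and -2.11 ± 0.21 (adjusted p = 2.92e-06) against BEFs. The log2 ratio of GAPDH to ACTB in CPM was -0.81 ± 0.02 in BEFs, then -0.10 ± 0.37 in CiADCs-3d and 0.02 ± 0.37 in CiADCs-6d (SD, n = 3), so that relative to ACTB the level of GAPDH was higher on both later days, by 0.71 and 0.83 (exact two-sided permutation test, p = 0.1 for each, the smallest possible). The cyclophilin PPIA was lower on both days, at -1.17 ± 0.09 and -1.46 ± 0.09 on days 3 and 6, and HPRT1 and YWHAZ passed -1 on day 6 at -1.08 and -1.37. B2M was higher on both days, at 1.09 and 1.18. GUSB was not called on day 3, at 0.0 (edgeR adjusted p = 0.988), and was higher on day 6 at 0.32 (adjusted p = 0.00634).

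**Figure D4:**
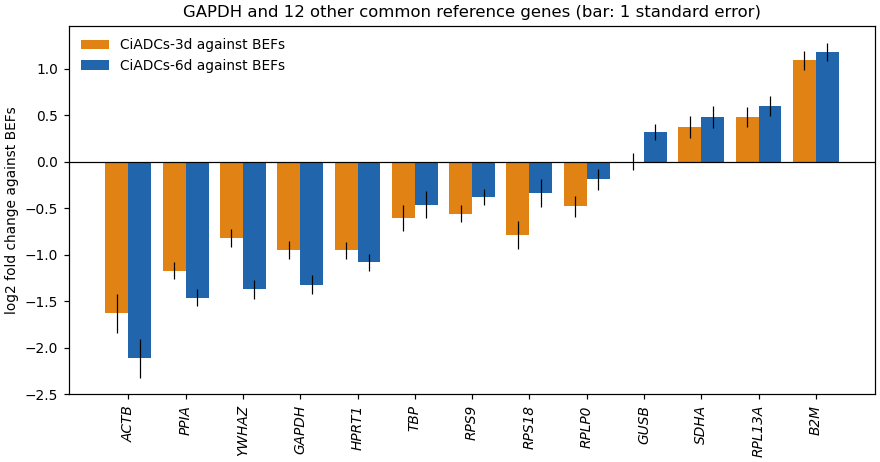
Log2 fold change of GAPDH and 12 other common reference genes in CiADCs-3d (orange) and CiADCs-6d (blue) against BEFs, ordered by the day 6 value, with a bar of 1 standard error. ACTB at -2.11 and B2M at 1.18 on day 6 mark the ends, and GAPDH at -1.32 is the fourth lowest.

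The 35 genes sit among 82 others that were listed with them from the same area of metabolism, of which 75 passed the filter. On day 3, 31 of the 75 were higher (41.3%) and 17 lower (22.7%), against 30.9% and 29.1% of all genes tested. On day 6, 34 were higher (45.3%) and 24 lower (32.0%), against 35.6% and 31.9% of all genes, so that the share of lower genes was near that of the whole table. The medians of the log2 fold changes were 0.26 and 0.32.

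Among other isoforms of the same steps, 6 of 15 tested were higher (40.0%) and 1 lower (6.67%) on day 3, against 30.9% and 29.1% of all genes tested. On day 6, 7 were higher (46.7%) and 1 lower (6.67%), against 35.6% and 31.9%. SLC16A7, which encodes the high-affinity pyruvate and lactate carrier MCT2, had 3.48 CPM in BEFs, then 119.9 in CiADCs-3d and 120.4 in CiADCs-6d, 34.3-fold and 34.5-fold higher than in BEFs (adjusted p = 8.38e-11 and 7.99e-11). SLC2A6, a lysosomal hexose transporter, was higher by 1.67 and 1.0 on the log2 scale, and PKLR, the pyruvate kinase of liver and red cells, by 0.89 and 1.72. LDHD, a mitochondrial D-lactate dehydrogenase at levels under 1 CPM, was called higher at 1.53 and 1.5, but leaving out 1 library moved these values to between 1.06 and 2.36, and both calls were lost without BEFs replicate 1 or 2, the day 3 call without CiADCs-3d replicate 2 or 3, and the day 6 call without CiADCs-6d replicate 1 or 3, with adjusted p between 0.0594 and 0.142.

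Among 6 genes of mitochondrial pyruvate entry and dehydrogenase activation, 1 was higher (16.7%) and 2 lower (33.3%) on day 3, against 30.9% and 29.1% of all genes tested. On day 6, 1 was higher (16.7%) and 4 lower (66.7%), against 35.6% and 31.9%. PDP2, a phosphatase that reverses the kinases, averaged 16.3 CPM in BEFs, then 73.2 in CiADCs-3d and 105.1 in CiADCs-6d, for log2 fold changes of 2.16 ± 0.16 and 2.69 ± 0.16. The other phosphatase, PDP1, was lower, at -0.73 and -0.48, and MPC1, a subunit of the mitochondrial pyruvate carrier, was lower at -0.92 and -0.32, of which the day 6 call was lost without BEFs replicate 1 or 2 or CiADCs-6d replicate 1 or 2 (adjusted p between 0.0515 and 0.126). PDHX, which anchors DLD in the complex, was lower on day 6 at -0.44.

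Genes of the pentose phosphate pathway did not move together. Of 7, 3 were higher (42.9%) and 2 lower (28.6%) on day 3, against 30.9% and 29.1% of all genes tested. On day 6, 3 were higher (42.9%) and 4 lower (57.1%), against 35.6% and 31.9%. The higher ones belong to the non-oxidative branch: TKT averaged 247.0 CPM in BEFs, then 1242 in CiADCs-3d and 977.4 in CiADCs-6d, TALDO1 266.3, 1067 and 597.3 CPM, and RPIA 6.29, 49.6 and 44.5 CPM. RPE, of the same branch, averaged 14.03, 11.65 and 10.25 CPM and was among the lower genes on day 6. TALDO1 was lower on day 6 than on day 3, at -0.84 ± 0.09 on the log2 scale (adjusted p = 0.000182).

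Of 11 glycogen genes, 7 were lower on day 6 (63.6%) and 2 higher (18.2%), against 31.9% and 35.6% of all genes tested. On day 3, 3 were lower (27.3%) and 2 higher (18.2%), against 29.1% and 30.9%. PYGL, the glycogen phosphorylase of liver, was lower at -0.52 and -1.39, the branching enzyme GBE1 at -0.36 (-0.25 without CiADCs-3d replicate 1, adjusted p = 0.0523) and -0.95, and the synthase GYS1 at -0.35 and -0.86. PYGM, the muscle phosphorylase, averaged 0.148 CPM in BEFs, then 0.151 in CiADCs-3d and 3.2 in CiADCs-6d, with a day 6 log2 fold change of 4.39 ± 0.48 (adjusted p = 6.08e-06).

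Of 4 tested gluconeogenesis genes, 3 were higher on both days. The mitochondrial enzyme PCK2 averaged 192.3 CPM in BEFs, then 623.6 in CiADCs-3d and 757.4 in CiADCs-6d. FBP1, the fructose bisphosphatase that opposes phosphofructokinase, averaged 0.598, 24.0 and 19.6 CPM on days 0, 3 and 6. FBP2, its muscle form, had 2 counts over the 3 BEFs libraries, 471 over CiADCs-3d and 332 over CiADCs-6d. Relative to the total counts that is a ratio of 258.0 on day 3 (95% exact interval 70.9 to 2130) and 187.0 on day 6 (51.3 to 1550), intervals that cover counting error only. G6PC3, a glucose 6-phosphatase, was lower on day 6 at -0.24, a call lost without BEFs replicate 2 or 3 or CiADCs-6d replicate 2 or 3 (adjusted p between 0.0556 and 0.114). PCK1, the cytosolic partner of PCK2, stayed under the filter.

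Of 9 genes that carry cytosolic NADH into mitochondria, 3 were higher (33.3%) and 5 lower (55.6%) on both days. Of all genes tested 30.9% were higher and 29.1% lower on day 3, and 35.6% and 31.9% on day 6. Both glycerol phosphate shuttle genes were among the higher ones, GPD2 at 1.42 and 1.47 and GPD1 at 0.85 and 0.63, of which the day 6 call was lost without BEFs replicate 2 (0.53, adjusted p = 0.0621). The aspartate and glutamate carriers parted, SLC25A13 being higher at 1.02 and 0.73 and SLC25A12 lower at -0.50 and -1.24, and cytosolic malate dehydrogenase, MDH1, was lower at -0.59 and -1.02. Citrate cycle genes changed little: of 10, 3 were higher and 4 lower on day 3, and 3 and 2 on day 6, all within 0.6 on the log2 scale. The isocitrate dehydrogenase subunit IDH3A was lower at -0.51 and -0.60, and its partner IDH3G higher at 0.31 and 0.46. SDHA was higher at 0.37 and 0.48 and FH at 0.24 and 0.41. On day 3 the calls of IDH3G and SDHA were lost when CiADCs-3d replicate 2 or either of replicates 1 and 2 of BEFs was left out, that of IDH3G also without CiADCs-3d replicate 3, and that of FH without any single library of either group (adjusted p between 0.0509 and 0.116).

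Among 13 regulators of the route, 10 were higher on day 3 (76.9%) and 12 on day 6 (92.3%), against 30.9% and 35.6% of all genes tested. EPAS1, which encodes the hypoxia-inducible factor HIF-2alpha, averaged 60.0 CPM in BEFs, then 1836 in CiADCs-3d and 2558 in CiADCs-6d (log2 4.93 ± 0.13 and 5.41 ± 0.14, adjusted p = 8.15e-11 and 5.31e-11). EGLN3, an oxygen sensor that marks such factors for decay, averaged 7.04, 56.4 and 51.5 CPM on days 0, 3 and 6. MLXIPL, which encodes the glucose sensor ChREBP, averaged 0.689, 12.3 and 22.4 CPM, and TXNIP, its classic target and a brake on glucose uptake, 27.0, 130.1 and 206.0 CPM. TXNIP had 228.9, 52.0 and 109.3 CPM in the 3 libraries of CiADCs-3d, and its day 3 log2 fold change of 2.27 became 1.6 without replicate 1 (adjusted p = 0.0014). PPARD passed on neither day with all libraries, and without CiADCs-3d replicate 1 it was lower on day 3 at -0.40 (adjusted p = 0.0105).

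**Figure D5:**
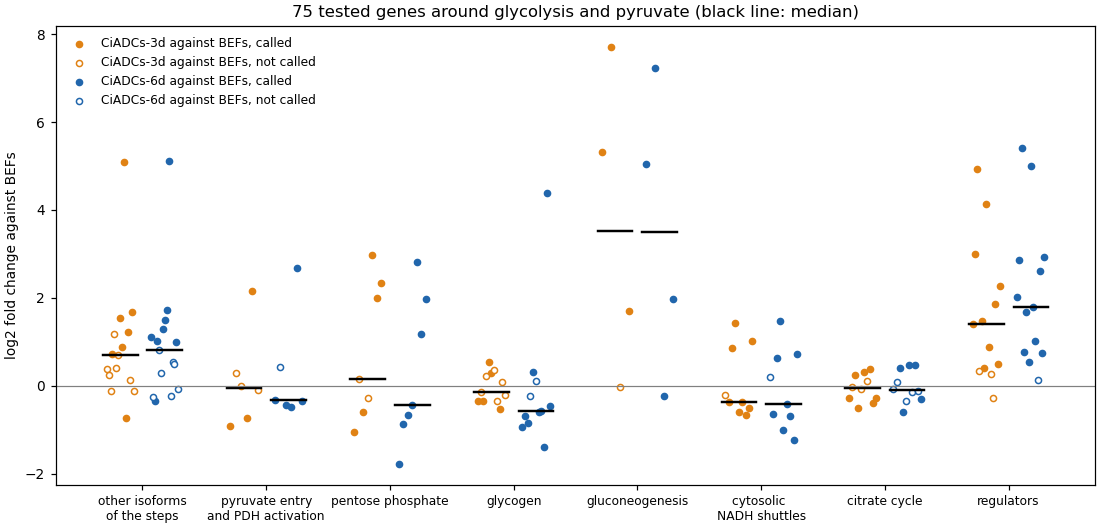
Log2 fold change of the 75 tested genes around the route, by group, in CiADCs-3d (orange) and CiADCs-6d (blue) against BEFs, with a black line at the median of each group; filled points passed an adjusted p under 0.05. The medians of the 13 regulators are 1.40 on day 3 and 1.79 on day 6, and those of the 11 glycogen genes -0.14 and -0.57.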

How the data were processed

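RNA-seq of 9 cultures was analysed. The deposited table holds expected counts and FPKM per gene, made by the authors. The submitters' processing notes list RSEM, StringTie 1.3.1, HISAT2 2.2.4 and fastp 0.18.0, while the methods text names TopHat and HTSeq, and no genome build is given in the sources used here. The labels describe rRNA removal and the methods text poly(A) selection. The labels give the word reprogramming as treatment to day 0 also, whose title says control. Of 21039 NCBI identifiers, 20582 matched RefSeq. The symbol column carried 37 rows for 33 of the names, 4 of them other genes.

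Expected counts were rounded, filtered with filterByExpr (minimum count 10), leaving 14020 genes, and tested with edgeR 4.0.16 (quasi-likelihood, TMM scaling, Benjamini-Hochberg over all genes tested) in one fit of all 9 samples. CPM were computed from the scaled library sizes. Alternatives used limma 3.58.1 and DESeq2 1.42.0. The scripts were tested on simulated data. Members and gene lists were chosen with earlier results of these data known. Genes with values in every sample were, in each role group, those with the largest day 6 changes, GAPDH, and those whose comparisons differed in direction, with PDK1 and LDHA added after their values were seen. Of the surrounding genes up to 4 per group were named, with GPD1, PCK1, PPARD and RPE added, and of the reference genes ACTB, GUSB and those past 1 on the log2 scale. A few genes of these lists enter the counts but are not reported here by name. Intervals cover counting error only.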

Additional observations from a re-analysis of the deposited data

Results flagged for a closer look

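PFKL and LDHB behaved differently on the 2 days of induction. The log2 fold change of CiADCs-6d against CiADCs-3d was -0.52 for PFKL (edgeR adjusted p = 0.0335) and -0.48 for LDHB (adjusted p = 0.00364), while against BEFs each was called lower on day 6 and not on day 3. PFKL lost the call between the days without CiADCs-3d replicate 2 (adjusted p = 0.128) or replicate 3 (0.11), without CiADCs-6d replicate 2 (0.104) or replicate 3 (0.0954), and without BEFs replicate 1 (0.0508).

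A row that carries the symbol LDHA but belongs by its identifier to LDHC, the lactate dehydrogenase of testis, held a signal outside the 35 genes. LDHC averaged 2.01 CPM in CiADCs-6d, against 0.821 CPM in BEFs, with a log2 fold change of 1.29 (adjusted p = 0.00291). These levels rest on 126 counts over the CiADCs-6d libraries and 56 over the BEFs libraries.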

How the results depend on the processing

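Depth limits the genes near 1 CPM, such as SLC2A4, and 3 samples a group limit every permutation test to p = 0.1. Of the log2 fold changes of the 35 genes under other scalings, 2 of 315 changed sign, SLC2A1 on day 6 against BEFs and PDK1 between day 6 and day 3, both near 0, with total counts alone. The promoter motif search was not run, for want of sequences.

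With a log2 fold change of at least 1 in size required as well, the members called in CiADCs-3d against BEFs were 4 higher and 8 lower, in CiADCs-6d against BEFs 9 lower, and in CiADCs-6d against CiADCs-3d 3 higher and 1 lower. All genes called became 2552 and 1393, 3075 and 1874, and 574 and 451, and the surrounding genes 20 and 1 on day 3, 4 lower on day 6, and 1 and 1 between the days. The cause is the stricter threshold. With only the groups compared in the fit, CiADCs-6d against CiADCs-3d gave 4 lower members, 1185 lower genes, and 7 higher and 9 lower surrounding genes. Without CiADCs-3d replicate 1 and CiADCs-6d replicate 1 it gave 17 lower members, 3224 higher and 3690 lower genes, and 22 and 24 surrounding genes. Leaving out 1 library at a time, it gave 3 to 7 higher and 5 to 14 lower members, 1006 to 2439 higher and 1079 to 2938 lower genes, and 5 to 16 higher and 9 to 21 lower surrounding genes. The cause was not tested. Same-numbered libraries did not pair: 2 of 9 correlations exceeded 0.1, and they ran from -0.445 to 0.264. With the replicate number as a block, 11 members were higher and 13 lower on day 3, 10 and 16 on day 6, and 5 and 7 between day 6 and day 3.

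Taken as shares of CPM in place of FPKM, the differences against BEFs on days 3 and 6, in points, were -33.5 and -32.9 for PDK1, -23.5 and -21.7 for PDK2, 11.6 and 11 for PDK4, 7.68 and 6.87 for ENO1, 0.847 and 3.83 for ENO2, and -8.53 and -10.7 for ENO3. LDHA on day 6 was 8.91. Between day 6 and day 3 ENO1 was -0.807 and ENO2 2.98. CPM does not divide by length.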
